A study of Mus musculus with 20 samples.

Results

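Transcripts of lipid droplet proteins were examined in mouse liver: Cidea, Cideb and Cidec of the Cide family, Plin2, Plin3, Plin4 and Plin5 of the perilipin family, G0s2, an inhibitor of lipolysis, and the fat storage genes Fitm1 and Fitm2. The genes were chosen by name, with earlier results of these data known, and they are 10 of the 46095 gene symbols in the deposited count table. All 10 symbols had a row, and 9 passed the filter on low counts, the exception being Cidea. RNA sequencing covered 20 livers, each from a separate mouse per the sample titles, in 4 groups of 5: wild-type mice on chow (WT chow), wild-type mice on the NASH diet (WT NASH), mice with a liver-specific knockout of Pck1 (labelled Pck1-cKO, here KO) on chow (KO chow), and KO mice on the NASH diet (KO NASH). Pck1 encodes the cytosolic phosphoenolpyruvate carboxykinase of gluconeogenesis, and a NASH diet is one used to bring about non-alcoholic steatohepatitis. All mice were 31 to 33 weeks old and had been on their diet for 24 weeks. The labels name neither the Cre line behind the knockout nor the strain, the sex of the mice or the makeup of the NASH diet.

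Hepatocytes store surplus fatty acids as triglyceride in lipid droplets, which form at the endoplasmic reticulum and are bounded by a single layer of phospholipid. Fitm proteins act at the membrane where droplets bud, perilipins coat the droplet and control the access of lipases, G0s2 inhibits the lipase ATGL (encoded by Pnpla2), and Cide proteins sit where droplets touch and move lipid from the smaller to the larger one. Cidec, also known as Fsp27, is known to be low in lean liver and high in fatty liver, where the nuclear receptor PPAR gamma drives it, and Plin2 is a known target of PPAR alpha. In a liver homogenate, fewer cells of a type and less RNA per cell cannot be told apart.

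The promoters of Cidec, Fitm2 and Plin2 are shown because Cidec and Fitm2 were called for the knockout on both diets and Plin2 is the main coat gene of hepatocyte droplets. Each line is the 250 bases before a transcript start in RefSeq (build GRCm38.p6), written 5′ to 3′ on the gene's own strand.
Cidec first promoter, chr6:113435761-113436010, strand -: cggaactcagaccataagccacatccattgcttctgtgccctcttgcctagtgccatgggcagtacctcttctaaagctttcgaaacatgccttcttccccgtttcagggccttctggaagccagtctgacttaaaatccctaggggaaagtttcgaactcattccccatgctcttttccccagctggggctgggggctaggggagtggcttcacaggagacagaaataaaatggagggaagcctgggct
Cidec second promoter, chr6:113434765-113435014, strand -: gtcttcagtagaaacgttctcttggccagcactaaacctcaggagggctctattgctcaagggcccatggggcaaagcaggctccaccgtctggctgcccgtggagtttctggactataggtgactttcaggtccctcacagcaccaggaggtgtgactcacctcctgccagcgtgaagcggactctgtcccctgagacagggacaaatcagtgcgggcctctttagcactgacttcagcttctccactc
Fitm2 promoter, chr2:163472630-163472879, strand -: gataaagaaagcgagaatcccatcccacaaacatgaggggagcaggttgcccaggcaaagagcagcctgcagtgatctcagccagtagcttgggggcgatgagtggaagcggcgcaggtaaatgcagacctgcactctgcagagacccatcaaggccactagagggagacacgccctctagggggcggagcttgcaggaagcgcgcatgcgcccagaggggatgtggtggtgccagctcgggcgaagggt
Plin2 promoter, chr4:86670060-86670309, strand -: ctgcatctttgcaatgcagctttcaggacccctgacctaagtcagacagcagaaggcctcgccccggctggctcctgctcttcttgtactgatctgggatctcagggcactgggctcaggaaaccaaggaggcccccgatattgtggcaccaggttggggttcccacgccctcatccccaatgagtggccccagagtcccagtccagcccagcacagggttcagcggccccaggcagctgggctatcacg
Short motifs were searched on both strands, without mismatch, in the 11 windows of the 9 members with an entry. AGGTCA, a building block of sites bound by many nuclear receptors, was found in the Plin2 window, from position -218 to -213 relative to the start, and in 1 of 2 Plin5 windows, against 14% of all 32851 promoter windows of that length. CCAAT was present upstream of Plin2, Plin3, Plin4 and Plin5, against 33.8% of all windows, and TATAAA upstream of Cideb, against 12.4%. CACGTG was in no member's window, against 6.02% of all windows. These are matches of letters in a short window and give no measurement of binding.

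Library totals ran from 9958935 to 20601955 counts. KO NASH replicates 1 and 5 were the most alike pair of libraries within a group. A chi-square of their counts was 7.811 per degree of freedom, against 21.5 for the next pair. Whether these 2 libraries stem from separate samples was not tested. Pck1 was lower in KO than in WT livers, by -2.51 on the log2 scale with chow (SE 0.291) and by -2.36 with the NASH diet (SE 0.289), and both were called. The groups differed in sex as read from the counts: all 5 WT chow mice were male, as were WT NASH replicate 4 alone of its group, KO chow replicates 1, 2 and 4, and every KO NASH mouse but replicate 2. With 1 male in WT NASH and 4 in KO NASH, genotype and sex can hardly be separated on the NASH diet. The groups also differed in library type. In 6 libraries (WT chow 3, 4 and 5, WT NASH 4, KO chow 4 and 5) long genes were low relative to short ones, with a slope of log2 CPM on log2 exonic length of -0.342 to -0.247, against 0.009 to 0.193 in the other 14. CPM are counts after division by the TMM-adjusted library size, brought to 1 shared total. Summed hepatocyte markers (6 genes) lay between 44820 and 116500 CPM in all 20 libraries, and 8 skeletal muscle markers summed to 0.227 to 2.35 CPM.

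Within each comparison, all called members went in one direction. On the NASH diet, 4 of the 9 tested members fell in WT liver (Cidec, Plin2, G0s2 and Fitm1) and none rose, where 5.93% of all 14440 tested genes were called and 3.24% were called lower. Loss of Pck1 on chow went with higher Cidec and Fitm2 (2 of 9 members, against 5.53% of tested genes called and 3.03% called higher). Loss of Pck1 on the NASH diet went with higher Cidec, Fitm1, Fitm2, G0s2 and Plin4 (5 of 9, against 9.65% called and 4.9% called higher). The libraries of the 2 groups did not overlap for 3 members in the first of these comparisons, all lower (3.25% of tested genes), for 2 in the second, both higher (2.26%), and for 5 in the third, all higher (7.67%). The median log2 fold change of the 9 members was -0.97, 0.34 and 1.80 in these comparisons, beside 0.01, 0.00 and 0.00 over all tested genes. In KO mice the NASH diet went with lower Plin2 only (1 of 9, against 3.29% called and 1.52% called lower), with a member median of -0.45 beside -0.02. Calls are at an edgeR adjusted p under 0.05, adjusted over all tested genes. WT chow is the control of the first and the second comparison, and WT NASH enters the first and the third, so the values of these comparisons are not independent.

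**Figure D1:**
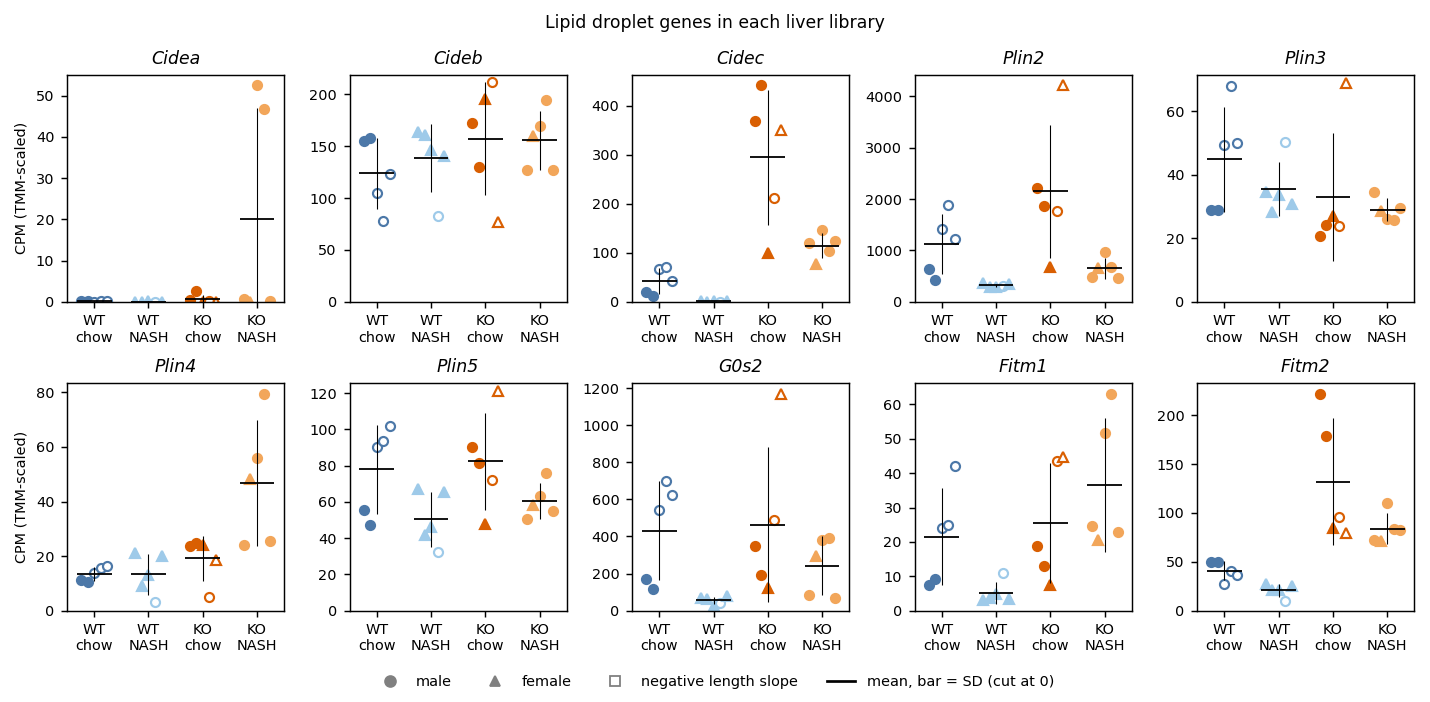
CPM (TMM-scaled, linear axes from 0) of the 10 genes in each of the 20 libraries, with circles for males, triangles for females, open symbols for libraries of negative length slope, and lines for the mean with SD. Cidec is near 0 in all 5 WT NASH libraries and at 77.6 to 146 CPM in all 5 KO NASH libraries, and Cidea stands above 40 CPM in 2 KO NASH libraries only.

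Cidec promotes the fusion and growth of droplets toward a single large one. It was at 20.3, 11.5, 67.2, 70.6 and 41.6 CPM in WT chow replicates 1 to 5, and at 0.904, 0.534, 0.787, 0.589 and 1.61 CPM in WT NASH replicates 1 to 5. No WT NASH library reached the lowest WT chow library. The fall was 46.8-fold (log2 fold change -5.55, SE 0.541, edgeR adjusted p = 8.53e-06), from 42.2 ± 26.7 to 0.886 ± 0.434 CPM (SD, n = 5). In KO chow, Cidec was at 370, 442, 99.9, 211 and 352 CPM, so that the lowest KO chow library, a female, still lay above the highest WT chow library. The rise was 7.0-fold (log2 fold change 2.81, SE 0.457, edgeR adjusted p = 0.00153), to 295 ± 138 CPM. In KO NASH it was at 121, 77.6, 146, 104 and 124 CPM, a narrow range with the female library lowest. Against WT NASH, this was 127-fold higher (6.99 on the log2 scale, SE 0.572, edgeR adjusted p = 4.73e-07). Within KO mice the NASH diet value was 2.58-fold below the chow value (log2 fold change -1.37, SE 0.434), which was not called by edgeR (adjusted p = 0.0846) and was called without KO chow replicate 3 (edgeR adjusted p = 0.0338) and by DESeq2 (adjusted p = 0.0284).

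The knockout difference in Cidec was larger on the NASH diet than on chow. The interaction was 4.18 on the log2 scale (SE 0.658, edgeR adjusted p = 0.0111), and Cidec was the 1 member among 20 genes (0.139% of those tested) called for it. The interaction lost its call with a sex term (3.71, edgeR adjusted p = 0.178), with sex and length slope as terms (3.20, edgeR adjusted p = 0.0539), in males alone (4.71, edgeR adjusted p = 0.205), in libraries of positive length slope alone (2.64, edgeR adjusted p = 0.0919) and with the replicate number as a block (4.06, edgeR adjusted p = 0.0567). WT chow holds no female and WT NASH 1 male, so sex and diet can hardly be separated in WT mice. Within WT chow the 3 libraries of negative slope had more Cidec (41.6 to 70.6 CPM) than the 2 of positive slope (11.5 and 20.3 CPM). Some subsets leave 1 library in a group: negative-slope libraries and males each hold 1 WT NASH library, and females 1 KO NASH library. Fits there assume that the lone library varies like the other groups, so their p-values contain no spread of its own group. Among positive-slope libraries, all WT chow mice were male and all WT NASH mice female, so WT diet effects and sex cannot be told apart there. That subset also lacks the only WT NASH male, so genotype and sex are still harder to separate in it on the NASH diet. The diet effect in WT mice was -4.05 among positive-slope libraries (edgeR adjusted p = 0.00077) and -6.76 among negative-slope ones (1 WT NASH library, edgeR adjusted p = 0.0223). The knockout effect on chow was 4.27 and 2.26 in the same 2 subsets (edgeR adjusted p of 0.0022 and 0.0477), and that on the NASH diet was 7.75 among males (1 WT NASH library, edgeR adjusted p = 0.00395) and 6.37 among females (1 KO NASH library, edgeR adjusted p = 0.0181).

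Cideb, which serves very low-density lipoprotein lipidation in hepatocytes and droplet fusion, was called in none of the comparisons. Its means were 123.7 ± 34.1, 138.8 ± 32.8, 157 ± 54.6 and 155.6 ± 28.8 CPM in WT chow, WT NASH, KO chow and KO NASH (SD, n = 5). The log2 fold changes were 0.17, 0.34, 0.16 and -0.02 for the diet in WT, the knockout on chow, the knockout on the NASH diet and the diet in KO (edgeR adjusted p of 0.513 to 0.979). For the knockout on the NASH diet the 95% interval ran from -0.36 to 0.68 on the log2 scale. Libraries differed within groups by more than the groups did, with 76.5 CPM in KO chow replicate 5 and 212 CPM in KO chow replicate 4. Of the Cideb exonic length, 76.3% is shared with Nop9 on the opposite strand, and whether counting used the strand is not stated. Nop9 was at 10.97 to 17.4 CPM in all libraries.

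Cidea, the family member of brown fat that appears in steatotic liver, was nearly absent from most libraries. It had 8 counts in all over the 5 WT chow libraries, 4 over WT NASH, 73 over KO chow and 1840 over KO NASH. Of the 1840 counts, 846 were in KO NASH replicate 3 and 974 in replicate 4, which corresponds to 52.5 and 46.7 CPM. The other 3 KO NASH libraries were at 0.597 (replicate 1), 0 (replicate 2) and 0.272 CPM (replicate 5), and the highest library of any other group was KO chow replicate 2 at 2.53 CPM. Counts were thus concentrated in 2 males of 5 mice, and no fold change is given for the group. Without the low-count filter, the edgeR adjusted p for KO NASH against WT NASH was 0.00361 and against KO chow 0.0495, both resting on those 2 libraries, and it was 0.949 for the diet in WT and 0.509 for the knockout on chow.

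Because Cidea is also an adipocyte gene, adipocyte markers were read in the same libraries. Lep was at 0 counts in all 20, Plin1 had at most 7 counts and Ucp1 at most 3. In KO NASH replicates 3 and 4, Plin1 and Ucp1 were at 0 and Adipoq had 0 and 2 counts. Retn had 5 and 1 counts in these libraries, 1 count in KO chow replicate 5 and none elsewhere. The sum of 9 adipocyte markers was 18.2 to 47.1 CPM for WT chow, 10.01 to 26.9 for WT NASH, 22.9 to 63.7 for KO chow and 27.8 to 73.6 for KO NASH, most of it Nrg4, Cfd and Adrb3. Cfd (complement factor D, or adipsin) was higher in KO NASH than in WT NASH (edgeR adjusted p = 0.000687), with 1 count over all 5 WT NASH libraries and 16.3 ± 21.4 CPM in KO NASH. It was highest in KO NASH replicate 4, at 54.4 CPM, and was at 7.33 CPM in replicate 3 and 3.59 to 9.43 CPM in the other 3 KO NASH libraries. Adrb3 was higher in KO NASH than in WT NASH (by 1.53 on the log2 scale, SE 0.439, edgeR adjusted p = 0.0327), at 5.56 to 10.3 CPM, with replicates 3 and 4 inside that range. It was lower in KO chow than in WT chow (-1.81, edgeR adjusted p = 0.0262) and was called for the interaction (3.34, edgeR adjusted p = 0.0392). The part of adipocyte RNA in the changes of the members was not tested.

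Plin2, the main perilipin of hepatocytes, coats droplets of all sizes and is degraded when not bound to one. It was at 642, 432, 1409, 1880 and 1231 CPM in WT chow and at 373, 291, 292, 301 and 339 CPM in WT NASH. All WT NASH libraries lay below all WT chow libraries, and they were close to each other (319 ± 35.9 CPM) where WT chow was spread out (1119 ± 586 CPM). The diet effect was -1.81 on the log2 scale (SE 0.407, edgeR adjusted p = 0.0121). In KO chow, Plin2 was at 2217, 1859, 671, 1774 and 4227 CPM, with a female both lowest and highest, and its difference from WT chow was not called (log2 fold change 0.94, SE 0.398, edgeR adjusted p = 0.188). KO NASH libraries, at 488, 655, 977, 669 and 470 CPM, lay all above all WT NASH libraries, but the difference was not called (1.03, SE 0.399, edgeR adjusted p = 0.107). Within KO mice Plin2 fell on the NASH diet (-1.72, SE 0.406, edgeR adjusted p = 0.0287).

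The Plin2 calls depended on which libraries were compared. In WT mice the diet effect was -0.72 among positive-slope libraries (edgeR adjusted p = 0.29) and -2.42 among negative-slope ones (1 WT NASH library, edgeR adjusted p = 0.197), and with sex as a term it was -1.95 (edgeR adjusted p = 0.0758). The 3 WT chow libraries of negative slope had 1231 to 1880 CPM, and the 2 of positive slope 432 and 642 CPM. The latter were both male and all positive-slope WT NASH libraries female. In KO mice the call was lost when 1 of KO chow replicates 1, 4 and 5 or of KO NASH replicates 1, 2, 4 and 5 was left out (edgeR adjusted p of 0.0519 to 0.0828), while in positive-slope libraries alone it was kept (-1.28, edgeR adjusted p = 0.0285). Within positive-slope libraries the knockout effect was called, both on chow (1.57, edgeR adjusted p = 0.0493) and on the NASH diet (1.01, edgeR adjusted p = 0.0321). It was also called on both diets with length slope as a term and with sex and length slope as terms. On the NASH diet, limma voom and the fit of only the 2 groups called it as well.

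Plin4, an adipose and muscle perilipin that coats small nascent droplets, was called for the knockout on the NASH diet. It was at 11.2, 10.6, 13.7, 15.7 and 16.2 CPM in WT chow and at 21.2, 9.20, 13.02, 3.09 and 19.9 CPM in WT NASH, and these groups overlapped (log2 fold change -0.01, SE 0.437, edgeR adjusted p = 0.992). KO chow replicates 1 to 5 had 23.7, 24.7, 23.9, 5.08 and 18.6 CPM (0.51 against WT chow, SE 0.435, edgeR adjusted p = 0.558). In KO NASH it was at 24.2, 48.2, 56.1, 79.5 and 25.5 CPM, so that every KO NASH library was above every WT NASH library. The difference was 1.80 on the log2 scale (SE 0.445, edgeR adjusted p = 0.0159), and the interaction of genotype and diet was 1.29 and not called (SE 0.615, edgeR adjusted p = 0.602). KO NASH 3 and 4, the 2 libraries high in Cidea, also had the most Plin4. In males alone the knockout effect on the NASH diet was 3.94, with the single male WT NASH library, replicate 4, being the lowest of all at 3.09 CPM. The call was lost in females alone, where KO NASH holds 1 library.

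Plin3 and Plin5 were called in no comparison. Plin5 ties droplets to mitochondria in tissues that oxidise fat, and its means were 77.9 ± 24.6, 50.5 ± 15.2, 82.4 ± 26.7 and 60.5 ± 9.85 CPM in WT chow, WT NASH, KO chow and KO NASH. Its log2 fold change for the diet was -0.62 in WT (SE 0.263, edgeR adjusted p = 0.168) and -0.45 in KO (edgeR adjusted p = 0.311). Plin3, a ubiquitous perilipin that moves from the cytosol to new droplets, had means of 45.0 ± 16.5, 35.6 ± 8.61, 33.0 ± 20.2 and 29.0 ± 3.56 CPM. Its 5 highest libraries, at 49.6 to 68.8 CPM, were all of negative length slope, and the 14 libraries of positive slope were at 20.8 to 34.7 CPM. Without KO chow replicate 5, the highest, the knockout effect on chow was called (-0.88, edgeR adjusted p = 0.0254), against -0.45 with it (edgeR adjusted p = 0.442). Among positive-slope libraries that effect was -0.25 (edgeR adjusted p = 0.349).

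G0s2 encodes a small protein that binds and inhibits ATGL and so slows the release of fatty acids from droplets. It was at 170, 118, 541, 697 and 622 CPM in WT chow and at 66.3, 62.8, 26.5, 43.4 and 76.8 CPM in WT NASH, with no overlap. It fell 7.78-fold (log2 fold change -2.96, SE 0.652, edgeR adjusted p = 0.0107). KO chow had 347, 192, 120, 488 and 1169 CPM, overlapping WT chow (0.11, SE 0.605, edgeR adjusted p = 0.943). KO NASH had 84.7, 294, 382, 389 and 65.4 CPM: replicates 2, 3 and 4 were far above all WT NASH libraries, replicate 1 was just above them and replicate 5 was inside their range. The rise against WT NASH was 2.14 (SE 0.631, edgeR adjusted p = 0.0374). This call was lost when any 1 WT NASH library, or KO NASH replicate 2, 3 or 4, was left out (edgeR adjusted p of 0.0513 to 0.0871). The call was also lost in males alone (2.44, 1 WT NASH library) and in females alone (1 KO NASH library). The diet call in WT was kept with a sex term. It was lost with sex and length slope as terms, in males alone (1 WT NASH library) and within either library type. The diet effect in WT was -1.30 among positive-slope libraries (edgeR adjusted p = 0.249), where WT chow was all male and WT NASH all female. Among negative-slope libraries it was -3.93 (1 WT NASH library). WT chow libraries of negative slope had 541 to 697 CPM and those of positive slope 118 and 170 CPM.

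Fitm1 and Fitm2 encode endoplasmic reticulum proteins that act on lipids at the site of droplet budding, Fitm1 mainly in muscle and Fitm2 in many tissues. Fitm2 was at 49.9, 49.4, 26.9, 40.9 and 36.9 CPM in WT chow and at 222, 179, 84.2, 95.3 and 79.2 CPM in KO chow. The groups did not overlap, and 2 males of KO chow stood highest. The rise was 3.23-fold (log2 fold change 1.69, SE 0.302, edgeR adjusted p = 0.00288). With the NASH diet, WT libraries had 27.0, 21.0, 20.8, 9.86 and 24.9 CPM and KO libraries 72.0, 71.6, 109.8, 83.8 and 82.0 CPM, again apart, a 4.04-fold difference (2.01, SE 0.306, edgeR adjusted p = 0.000563). The knockout effect on Fitm2 was called on both diets in positive-slope libraries alone (1.72 on chow and 1.84 on the NASH diet, edgeR adjusted p of 0.0101 and 0.000247). In males alone it was 2.03 on chow (edgeR adjusted p = 0.00162). Among males on the NASH diet it was 3.17 (edgeR adjusted p = 0.00552), where the 1 WT NASH male, replicate 4, was also the lowest Fitm2 library, at 9.86 CPM. It was not called among negative-slope libraries on chow (1.37, edgeR adjusted p = 0.0977) or among females on the NASH diet (1.64, edgeR adjusted p = 0.0718), with 1 KO NASH female. Its diet effect in WT was -0.97 and not called (SE 0.299, edgeR adjusted p = 0.0571), but was called without KO chow replicate 1 or 5 (edgeR adjusted p of 0.0415 and 0.0398).

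Fitm1 showed more spread. It was at 7.46, 9.15, 24.0, 24.9 and 42.1 CPM in WT chow and at 3.16, 3.797, 4.72, 10.9 and 3.29 CPM in WT NASH, the latter group lower apart from its replicate 4. The fall was 4.26-fold (-2.09 on the log2 scale, SE 0.554, edgeR adjusted p = 0.0306). It lost its call when WT chow replicate 3, 4 or 5 or WT NASH replicate 1, 2, 3 or 5 was left out (edgeR adjusted p of 0.0578 to 0.101). It was also lost with only these 2 groups in the fit (-2.09, edgeR adjusted p = 0.0528), with a sex term (-1.62, edgeR adjusted p = 0.254) and with sex and length slope as terms (-0.77, edgeR adjusted p = 0.237). In subsets it was -1.0 in males (1 WT NASH library) and -1.58 in negative-slope libraries (1 WT NASH library), neither of them called. In positive-slope libraries, where WT chow was all male and WT NASH all female, it was -1.14 and not called (edgeR adjusted p = 0.167). KO NASH had 24.6, 20.6, 51.8, 63.1 and 22.9 CPM, all above WT NASH, a 7.26-fold rise (2.86, SE 0.566, edgeR adjusted p = 0.00396). That rise was called in positive-slope libraries alone, where all WT NASH mice were female (3.29, edgeR adjusted p = 0.00014). It was also called with a sex term (2.49, edgeR adjusted p = 0.0209). The call was lost in males alone (1.93, 1 WT NASH library) and in females alone (1 KO NASH library). KO chow, at 18.9, 13.1, 7.57, 43.6 and 44.6 CPM, overlapped WT chow (0.25, SE 0.521, edgeR adjusted p = 0.833). The 2 highest of these were the 2 KO chow libraries of negative slope, and the 3 highest of WT chow were its 3 of negative slope. The interaction was 2.61 and not called (SE 0.757, edgeR adjusted p = 0.194), where DESeq2 called it (2.58, adjusted p = 0.0462).

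**Figure D2:**
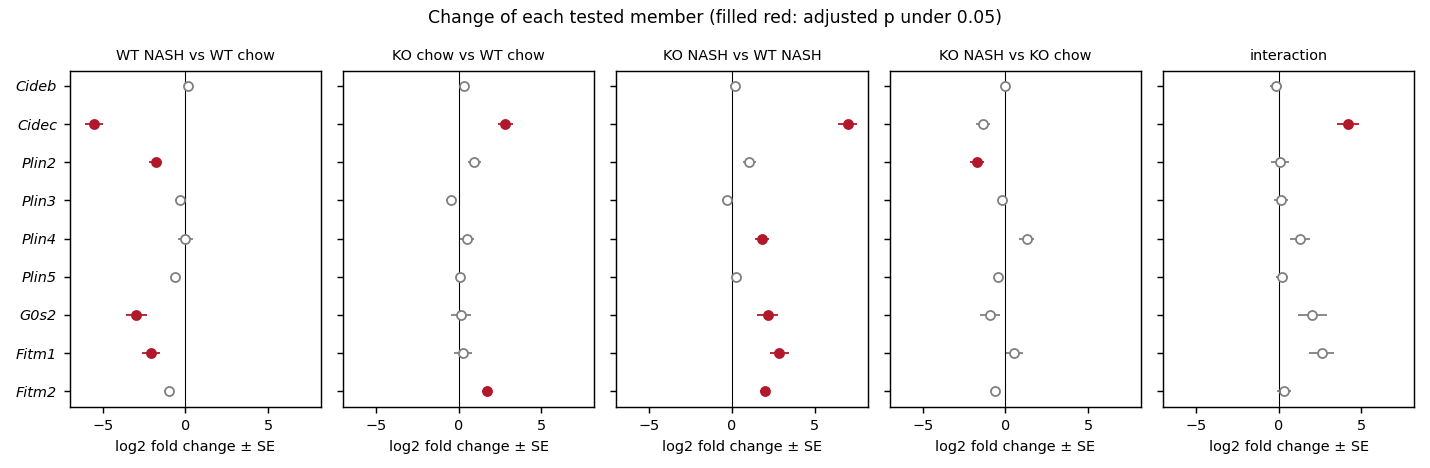
Log2 fold change (point) with SE (bar) of the 9 tested members in the 4 comparisons and the interaction, from edgeR, filled red where the adjusted p is under 0.05. The Cidec points lie farthest from 0 in the first 3 panels, at -5.55, 2.81 and 6.99, and Cideb, Plin3 and Plin5 are open in every panel.

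Levels of the genes can be set beside each other once divided by exonic length. In WT chow, G0s2 (493 ± 307 CPM per kb) and Plin2 (318 ± 167 CPM per kb) stood highest and overlapped, followed by Cideb (83.2 ± 22.9) and Plin5 (37.3 ± 11.8 CPM per kb), each apart from the one above it. Cidec, Fitm1, Plin3 and Fitm2 followed at 22.8, 22.2, 11.9 and 10.3 CPM per kb, and neighbours in this order overlapped. Plin4 (2.34 CPM per kb) and Cidea (0.0996) were below all of them. In WT NASH the 3 leading genes, Cideb, Plin2 and G0s2, were at 93.3, 90.8 and 63.3 CPM per kb and overlapped, and Cidec stood next to last, at 0.477 CPM per kb. In KO chow, Plin2 and G0s2 led at 612 and 532 CPM per kb and Cidec came after them, at 159 ± 74.1 CPM per kb, overlapping Cideb at 105.7 CPM per kb. KO NASH had G0s2 at 279, Plin2 at 186, Cideb at 104.5 and Cidec at 61.7 CPM per kb, with Cidec below all Cideb libraries. Cidec thus held the fifth place in WT chow, the ninth in WT NASH, the third in KO chow and the fourth in KO NASH.

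**Figure D3:**
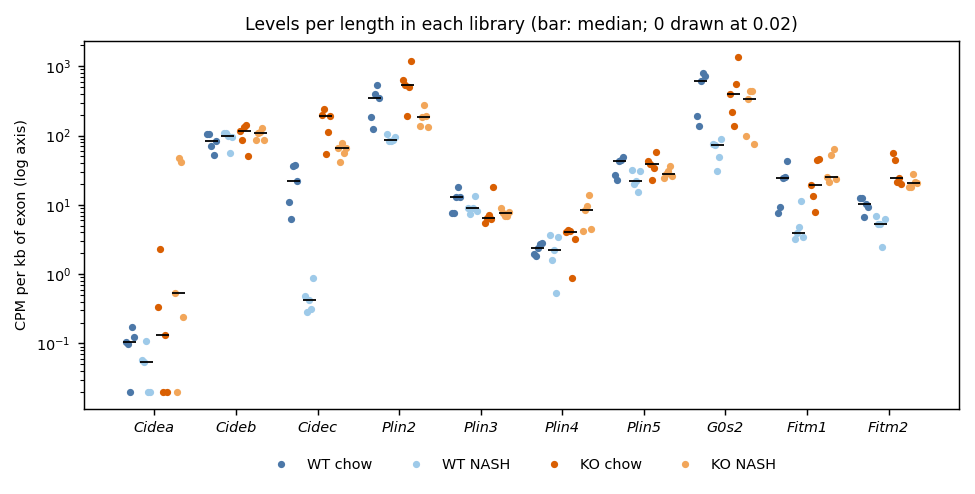
CPM per kb of exon on a log axis for each gene and library, coloured by group, with a bar at the median of 5 libraries and values of 0 drawn at 0.02. Cidec moves from 0.477 CPM per kb on average in WT NASH to 159 in KO chow, while Cideb stays between 83.2 and 105.7 CPM per kb in all 4 group means.

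Among mice of the same group, some members varied together and others did not. With group means removed, Pearson r over the 20 libraries ran from -0.878 to 0.855 over all pairs of members. It was 0.855 between Plin2 and G0s2, 0.837 between Plin2 and Plin5, 0.802 between Plin2 and Cidec, and 0.794 between Cidec and Plin5. Between Cideb and Plin3 it was -0.878, between Plin3 and Fitm2 -0.63, between Fitm1 and Fitm2 -0.403, and between Plin2 and Fitm2 -0.009. Sex and library type varied within groups. In WT chow the 3 libraries of negative slope were higher than the 2 of positive slope in Cidec, Plin2, Plin3, Plin4, Plin5, G0s2 and Fitm1, and lower in Cideb and Fitm2. Pearson r with the length slope, group means removed, was -0.828 for Fitm1, -0.71 for Plin3, -0.672 for G0s2 and -0.569 for Plin2. It was 0.713 for Fitm2, 0.522 for Cideb and 0.38 for Plin4, and between -0.329 and 0.171 for Plin5, Cidec and Cidea. The part of library type in the correlations between members was not tested.

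The genes whose log2 CPM was most like that of a member over the 20 libraries were found among tested genes whose mean reached 1 CPM. For Cidec they were Pnldc1, Srxn1 and Tmem41a (Pearson r of 0.948, 0.936 and 0.933, and 0.526, 0.795 and 0.638 with group means removed). For Plin2 they were Ppcs, Wdr73 and Hsdl2 (0.965, 0.960 and 0.949), and for G0s2 Mlycd, Grpel2 and Hsdl2 (0.956, 0.946 and 0.931), so that Hsdl2 was near to both. Genes near to Fitm2 included Ppp2r2d and Slc52a2 (0.956 and 0.956). For Fitm1 they were Tmem134, Proca1 and Brms1l (0.908, 0.886 and 0.878), and for Plin4 Stx2, Tmem8 and Pknox2 (0.861, 0.855 and 0.834). The points fall in 4 groups that differ in sex and library type, and the highest of many values is high by selection.

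The gene lists that follow are to be read beside the shares of all tested genes called. These were 5.93% for the diet in WT, 5.53% for the knockout on chow and 9.65% for the knockout on the NASH diet. For the diet in KO the share was 3.29%. The medians over all tested genes were 0.01, 0.00, 0.00 and -0.02 in the same order. Lipases and other enzymes of droplet breakdown were called in both directions. Of 14 tested genes of lipolysis and droplet turnover, 1 was called higher and 3 lower on the NASH diet in WT, with a median log2 fold change of -0.47. Hsd17b11, a droplet-bound dehydrogenase, fell from 596 ± 348 to 131 ± 11.3 CPM (-2.19, SE 0.333, edgeR adjusted p = 0.000704), and Hsd17b13 fell by 1.39 on the log2 scale (SE 0.356, edgeR adjusted p = 0.0254). Pnpla3 rose, from 0.570 to 3.15 CPM (2.58, SE 0.715, edgeR adjusted p = 0.038). In KO chow, 2 were higher and 1 lower: Pnpla2, the lipase ATGL itself, was at 258 ± 179 against 64.7 ± 43.3 CPM (1.99, SE 0.482, edgeR adjusted p = 0.0208), and Lipe, hormone-sensitive lipase, at 33.0 ± 17.9 against 13.5 ± 5.03 CPM (1.28, SE 0.313, edgeR adjusted p = 0.0213). Ldah was lower (-0.83, SE 0.23, edgeR adjusted p = 0.0385). With the NASH diet 3 were higher in KO, among them Lipe (1.81, SE 0.319, edgeR adjusted p = 0.00161), and 2 were lower: Pnpla3 (-3.57, SE 0.738, edgeR adjusted p = 0.00537) and Aadac (-1.98, SE 0.53, edgeR adjusted p = 0.0243). In KO mice the diet went with lower Hsd17b11 and Lipa, at -1.21 and -1.13 (edgeR adjusted p of 0.0441 and 0.0202).

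Among 19 tested genes of droplet formation and triglyceride synthesis, 2 fell on the NASH diet in WT, 3 were higher in KO chow and 4 were higher in KO NASH than in WT NASH, and none was called the other way. Dgat1, which makes the final step of triglyceride synthesis, fell on the NASH diet in WT (-0.89, SE 0.165, edgeR adjusted p = 0.00329) and in KO (-1.08, SE 0.164, edgeR adjusted p = 0.00283), and was higher in KO on chow (0.86, SE 0.164, edgeR adjusted p = 0.0045). Gpat3, listed under its older symbol Agpat9, makes lysophosphatidic acid in the first step of that pathway. It stood at 9.92 ± 3.14 CPM in WT chow and 40.5 ± 16.3 in KO chow (2.03, SE 0.397, edgeR adjusted p = 0.00548), and 12.8 ± 6.31 in WT NASH and 38.6 ± 9.48 in KO NASH (1.58, SE 0.39, edgeR adjusted p = 0.016). Lpin2, a phosphatidate phosphatase, fell on the NASH diet in WT (-0.83, edgeR adjusted p = 0.0488) and was higher in KO NASH than in WT NASH (1.02, edgeR adjusted p = 0.0146). Mttp, which loads lipid onto apolipoprotein B, fell on the NASH diet in KO (-0.98, edgeR adjusted p = 0.017). Bscl2, which encodes seipin, the organiser of the budding site, was also higher in KO chow (1.12, SE 0.281, edgeR adjusted p = 0.0244). Mogat1, a monoacylglycerol acyltransferase, was at 0.354 ± 0.136 CPM in WT NASH and 6.22 ± 3.95 in KO NASH (4.11, SE 0.66, edgeR adjusted p = 0.000759). The list medians were -0.12, 0.25 and -0.04, near those of all genes.

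Genes known to respond to PPAR gamma in liver were read as a list of 7, of which 2 were lower on the NASH diet in WT, 2 were higher in KO chow and 5 were higher in KO NASH. The medians were -0.30, 1.65 and 2.59. Cd36, a fatty acid carrier, rose in KO chow (3.20, SE 0.475, edgeR adjusted p = 0.000811). Acot2, a mitochondrial acyl-CoA thioesterase, was at 34.3, 3.68, 181 and 40.9 CPM in WT chow, WT NASH, KO chow and KO NASH, an order of groups that put WT NASH lowest, as in Cidec. Clstn3, of which a short form is known to hold back Cidec in brown fat, had the same lowest group: 16.4 ± 6.68 CPM (WT chow), 1.23 ± 0.489 (WT NASH), 55.4 ± 22.3 (KO chow) and 31.3 ± 26.6 (KO NASH). It fell on the NASH diet in WT (-3.73, SE 0.594, edgeR adjusted p = 0.000978) and was higher in KO NASH than in WT NASH (4.66, SE 0.611, edgeR adjusted p = 0.000143), and its counts do not tell the short form from the long one. Pparg itself was not called, at 0.87 for the diet in WT, 1.00 for the knockout on chow and 0.66 for the knockout on the NASH diet (edgeR adjusted p of 0.116, 0.0769 and 0.192).

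Of 13 tested PPAR alpha-responsive genes, 6 fell on the NASH diet in WT, 3 rose in KO chow and 4 were higher in KO NASH than in WT NASH, with medians of -1.09, 0.81 and 1.70. Cyp4a14, a fatty acid hydroxylase, fell from 9119 ± 4729 to 824 ± 701 CPM in WT (-3.47, SE 0.77, edgeR adjusted p = 0.0111) and was at 5201 ± 2599 CPM in KO NASH (2.66 against WT NASH, SE 0.743, edgeR adjusted p = 0.0294). Cyp4a10, of the same family, and Acot1, an acyl-CoA thioesterase, fell in WT as well (-3.22 and -2.87, edgeR adjusted p of 0.00919 and 0.00864). Ehhadh, of peroxisomal oxidation, was higher in KO on chow (2.44, SE 0.481, edgeR adjusted p = 0.00567) and on the NASH diet (2.63, SE 0.485, edgeR adjusted p = 0.00216), and fell with the diet in KO (-2.38, edgeR adjusted p = 0.0141). Fgf21, a hormone made by the liver, was higher in KO NASH than in WT NASH (1.82, edgeR adjusted p = 0.0423). Pdk4, which restrains pyruvate dehydrogenase, rose in KO chow from 13.1 ± 4.99 to 177 ± 187 CPM (3.76, SE 0.7, edgeR adjusted p = 0.004).

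A list of regulators held 14 tested genes, namely Clstn3 and 13 transcription factors or cofactors. Of these, Srebf1 and Foxo1 rose on the NASH diet in WT (2.61 and 1.37, edgeR adjusted p of 7.41e-05 and 0.00664) and 2 fell, 1 of them Clstn3. On the NASH diet, 1 was higher and 3 were lower in KO than in WT. Mlxipl, which encodes the carbohydrate sensor ChREBP, was lower in KO on chow (-1.19, SE 0.325, edgeR adjusted p = 0.0367) and on the NASH diet (-1.23, SE 0.325, edgeR adjusted p = 0.0231). Foxo1 was lower in KO NASH than in WT NASH (-1.10, SE 0.278, edgeR adjusted p = 0.0176). None of the genes of these 5 lists was called for the interaction by edgeR. The lists share genes with each other (Clstn3 and Mogat1 each stand in 2 of them).

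**Figure D4:**
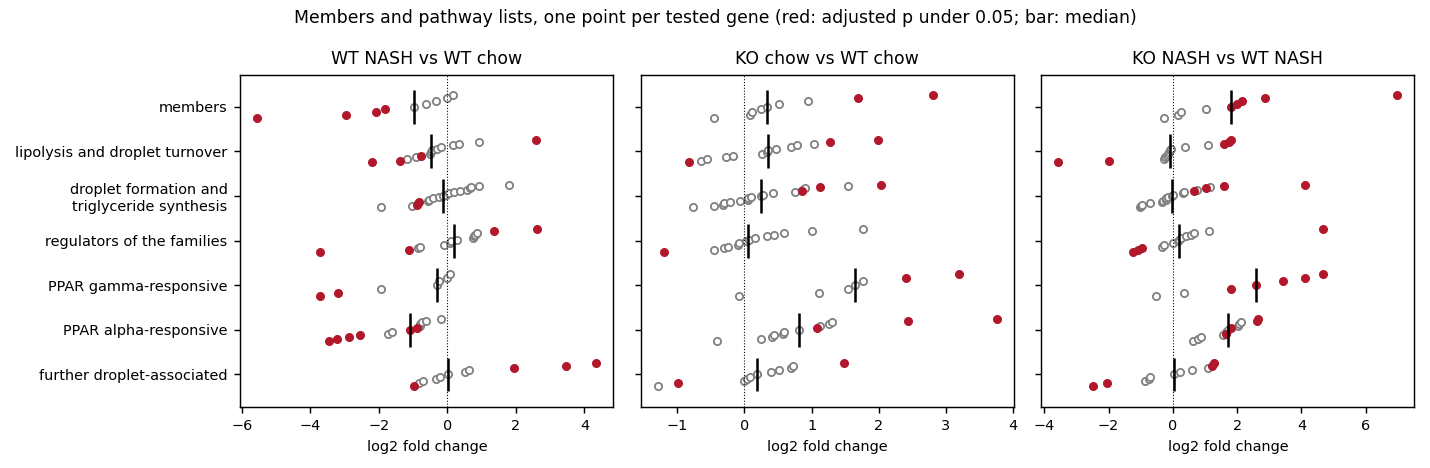
Log2 fold change of each tested gene (point) in the 9 members and 6 gene lists, for 3 comparisons with separate scales, red where the edgeR adjusted p is under 0.05 and with a bar at each list's median. The member median moves from -0.97 on the NASH diet in WT to 1.80 for the knockout on the NASH diet, and that of the 13 PPAR alpha-responsive genes from -1.09 to 1.70.

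Other cell types of the liver differed between the groups in single markers. Gpnmb, a macrophage gene, was at 0.622 ± 0.812 CPM in WT NASH and 9.65 ± 5.77 in KO NASH (4.25, SE 0.757, edgeR adjusted p = 0.00177), 1 of 8 macrophage markers called in that comparison. Their summed level was 355 to 1057 CPM in WT NASH and 302 to 436 CPM in KO NASH. Of 5 endothelial markers, Lyve1 and Kdr were higher in KO NASH than in WT NASH (1.62 and 0.66, edgeR adjusted p of 0.00866 and 0.0323), and the summed level was 141 to 223 CPM against 178 to 288 CPM. Of 6 stellate cell markers none was called in that comparison, and of 6 hepatocyte markers Serpina1c was lower (-1.14, SE 0.32, edgeR adjusted p = 0.0297). The part of cell composition in the changes of the members was not tested.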

How the data were processed

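The authors deposited 1 table of raw counts per gene symbol for all 20 livers. Per the labels' protocols, total RNA was extracted with Trizol, RNA of high integrity was used, and libraries followed a standard Illumina protocol. The submitters' processing notes name HISAT2 2.0.4 and GRCm38. No source used here states the counting program, the annotation or the strand setting. The table's columns for the second diet say HFD. They were assigned to the NASH groups, since all remaining columns say chow. The table held 46095 symbols, 26350 of them with a count.

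Tests used edgeR 4.0.16 in R 4.3.3: filterByExpr with a minimum count of 10 kept 14440 genes (99.91% of counts), TMM gave the scaling, and a single model with 1 coefficient per group was fitted to all 20 libraries and tested with the quasi-likelihood F test. P-values were adjusted by Benjamini and Hochberg over all tested genes, and genes were called at an adjusted p under 0.05. The common biological coefficient of variation was 39.0%. The comparisons were the diet in each genotype, the genotype on each diet, and the interaction (how far the KO effect on the NASH diet exceeds the KO effect on chow). SE were derived from the F statistic and the log2 fold change without shrinkage. The fit was also run on simulated counts with 200 changed genes, which held no differences by sex or length slope. The outcome of that run is not given here.

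Lengths and positions came from GENCODE M21 (GRCm38), with a length for 95.65% of tested genes, and the length slope was fitted over 9722 genes of mean log2 CPM of at least 2. Promoters came from RefSeq, of which 250 bases before the start were used. Libraries were taken as male where 4 Y-linked genes summed to 100 counts or more.

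Named are all 10 members; of each list and comparison, up to 3 called genes of largest change; and for each member called in a comparison, the 3 genes of highest Pearson r. A gene that this rule names is not reported here. Gpnmb, Lyve1, Kdr and the other markers named are from fixed marker lists of hepatocytes, adipocytes, skeletal muscle, macrophages, stellate cells, endothelial cells, cholangiocytes and pancreas. Members and lists were chosen with earlier results of these data known. Alternatives were RLE scaling, TMM without the 20 most abundant genes, no filter, DESeq2 1.42.0, limma 3.58.1 voom with quality weights, a fit of 2 groups at a time, a block for the replicate number, sex and length slope as terms, each sex alone, KO NASH replicates 1 and 5 (the most alike pair of libraries) summed, and leaving out each library in turn. Fits within each library type were added after seeing the data. Reads carry no molecular identifiers in the table, and counts near 0 are limited by counting error.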

Additional observations from a re-analysis of the deposited data

Results flagged for a closer look

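Of the member values, 4 stood apart from the other libraries of their group, by a gap above 0.71 of the group's range. Cidea was at 2.533 CPM in KO chow replicate 2. Plin3 was at 50.31 CPM in WT NASH replicate 4 and at 68.84 CPM in KO chow replicate 5. Fitm1 was at 10.89 CPM in WT NASH replicate 4. In 40 groups of member values looked at, 4 such libraries were found, where chance flags about 1 in 20, or 2. WT NASH replicate 4 and KO chow replicate 5 are libraries of negative length slope, the former is also the sole WT NASH male, and the part of either in these values was not tested.

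The knockout effect on Cidec differed between the diets, by 4.18 on the log2 scale (edgeR adjusted p = 0.0111, with 5 of 5 libraries higher in KO on each diet). Over its alternatives the edgeR, DESeq2 and limma adjusted p ranged from 4.56e-07 to 0.205.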

How the results depend on the processing

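Sex and library type were unevenly spread over the groups, and with 5 mice per group a call near the threshold could turn on 1 library. Depth limited Cidea and, in WT NASH, Cidec. Counts of called members are given with the share of all genes called in the same fit. The number called on the NASH diet in WT (4) was 2 with sex as a term (1.11%), 2 with sex and length slope (4.99%), 1 in males alone (0.596%; 1 WT NASH male, assumed to vary like the other groups), 2 in positive-slope (4.88%) and 1 in negative-slope libraries (0.249%; also 1 WT NASH library), and 3 to 5 with a library left out. For the knockout on chow (2) it was 4 with limma voom (40.4%), 4 with sex and length slope (13.8%), 1 in negative-slope libraries (0.353%), and 2 to 3 with a library left out. For the knockout on the NASH diet (5) it was 3 in males alone (13%), 1 in females alone (0.138%; 1 KO NASH female) and 4 to 6 with a library left out. For the diet in KO (1) it was 2 without the filter (0.96%), 3 with DESeq2 (9.02%), 3 with limma voom (12.7%), 0 with only these 2 groups (2.33%), 3 with length slope (6.36%), 5 with sex and length slope (9.37%), 0 in males alone (0.37%), 0 in females alone (0%), 0 with KO NASH replicates 1 and 5 as 1 sample (1.23%), 4 in positive-slope libraries (7.69%) and 0 to 2 with a library left out. For the interaction (1) it was 2 with DESeq2 (1.31%), 4 with limma voom (13.5%), 0 with sex (0.0277%), 2 with length slope (1.32%), 0 with sex and length slope (0.478%), 0 in males alone (0.0314%), 0 in positive-slope libraries (0.518%), and 1 in each of the 20 fits with a library left out. Cidec was called for the diet in WT and for the knockout on both diets under every alternative run, those with a lone library in a group included. Fits within negative-slope libraries were not possible with KO NASH, which holds none.

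The deviations of same-numbered libraries from their group means correlated at -0.405 to 0.518 (median 0.054, 13 of 30 pairs over 0.1). Libraries of different number correlated at -0.646 to 0.57 (median -0.024, 35 of 120 pairs over 0.1). Of 20 libraries, 6 were best matched to their own number. These values do not settle whether the numbers pair the mice, and the main fit used no pairing. With the replicate number as a block, 5, 2, 5, 1 and 0 members were called in the 5 comparisons, the Cidec interaction being lost (4.06, edgeR adjusted p = 0.0567; 0.0277% of genes called), and Cideb in the diet comparison in KO was 0.01.

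No called change turned its direction. Of 1512 member values under alternatives, 55 changed sign, none over 0.87 in size. For the diet in WT these were Cideb at 0.00 with sex and length slope, -0.61 in males, -0.02 in positive-slope and -0.40 in negative-slope libraries, Plin3 at 0.14 in males and 0.16 in positive-slope libraries, Plin4 at 0.02 with limma voom, 0.54 in positive-slope libraries and -0.24 to 0.22 with a library left out, and Plin5 at 0.11 in positive-slope libraries. For the knockout on chow they were Plin4 at -0.02 with sex and length slope and -0.35 in negative-slope libraries, Plin5 at -0.13 with limma voom and -0.07 to 0.23 with a library left out, G0s2 at -0.87 with limma voom, -0.20 with sex, -0.31 in males and -0.55 to 0.36 with a library left out, and Fitm1 at -0.52 with limma voom and -0.04 to 0.65 with a library left out. For the knockout on the NASH diet it was Plin3 at 0.12 with sex and length slope. For the diet in KO they were Cideb at 0.24 in females, 0.04 with KO NASH replicates 1 and 5 as 1 sample and -0.22 to 0.11 with a library left out, Plin3 at 0.24 with limma voom, 0.22 with length slope, 0.29 with sex and length slope, 0.33 in males, 0.27 in positive-slope libraries and -0.31 to 0.25 with a library left out, G0s2 at 0.15 in positive-slope libraries and Fitm1 at -0.32 in females. For the interaction they were Cideb at 0.45 in males, Plin2 at -0.56 in positive-slope libraries and -0.19 to 0.47 with a library left out, Plin3 at -0.04 to 0.60 with a library left out, Plin5 at -0.38 in positive-slope libraries and Fitm2 at -0.34 with limma voom. In males alone the median of all genes moved by 0.102 for the knockout on the NASH diet and 0.125 for the interaction. The cause of these shifts was not tested.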

Other observations

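Of 11 tested droplet-associated genes outside the families, 3 were called higher and 1 lower for the diet in WT, 1 and 1 for the knockout on chow, and 2 and 2 for the knockout on the NASH diet, with medians of 0.03, 0.19 and 0.03. The 3 higher for the diet in WT are enzymes of sterol synthesis known to sit on droplets, and Hsd17b7, another such enzyme in a different list, was at 0.91 there (edgeR adjusted p = 0.129). In WT mice Sqle (squalene epoxidase) rose from 4.17 ± 1.47 to 84.6 ± 31.8 CPM (4.35 on the log2 scale, SE 0.822, edgeR adjusted p = 0.0038), Nsdhl from 5.75 ± 3.69 to 63.3 ± 21.2 CPM (3.45, SE 0.482, edgeR adjusted p = 0.000361), and Lss from 11.7 ± 3.55 to 44.9 ± 16.0 CPM (1.94, SE 0.285, edgeR adjusted p = 0.000559). Against WT NASH, Sqle and Nsdhl were lower in KO NASH (-2.49 and -2.04, edgeR adjusted p of 0.04 and 0.00843), at 15.1 ± 18.9 and 15.4 ± 10.96 CPM, and Rdh16, a retinol dehydrogenase, was higher (1.29, SE 0.278, edgeR adjusted p = 0.00702). In KO chow, Acsl4, an acyl-CoA synthetase of polyunsaturated fatty acids, was higher than in WT chow (1.48, SE 0.372, edgeR adjusted p = 0.0243), and Dhrs3 was lower (-0.99, SE 0.29, edgeR adjusted p = 0.0492).

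Within KO mice the NASH diet went with higher Col1a1 (2.26, SE 0.532, edgeR adjusted p = 0.0287) and Sox9 (1.83, SE 0.445, edgeR adjusted p = 0.0326), each 1 marker of a stellate cell or cholangiocyte list. Cd68, 1 of 8 macrophage markers, was higher in WT NASH and in KO chow than in WT chow (1.01 and 1.03, edgeR adjusted p of 0.038 and 0.036). No other macrophage marker was called in these comparisons. For the diet in WT, 2 of the 8 had a positive log2 fold change (median -0.13). For the knockout on chow, 7 of the 8 did (median 0.49). Cela1, a pancreas acinar gene, was lower in KO NASH than in WT NASH (-3.16, SE 0.6, edgeR adjusted p = 0.00288).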
